A study of Mus musculus with 12 samples.

Results

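The TGF-beta and BMP signaling genes described here were 52 genes chosen by name: 13 ligands, 5 genes of latency and matrix, 12 receptors and coreceptors, 6 Smads, 5 inhibitors grouped as intracellular (the pseudoreceptor *Bambi* among them), 7 extracellular antagonists and the 4 Id genes. They were found among 35727 Ensembl genes by their identifiers, and 51 of them were among the 15506 genes that passed a filter on low counts. *Bmp7* was left out by that filter and held between 2 and 7 counts in every library. Fibroblasts from pooled hearts of neonatal mice were infected with *Sox17* and *Erg* retroviruses (*Sox17*-*Erg*) or served as control, cultured in EGM2 media, and their RNA was sequenced in bulk on Day 3, on Day 7 and after 4 weeks. There were 2 libraries in each of the 6 groups, 12 in all. The columns of the control libraries carry the name PMX, after the retroviral backbone, and the labels give no further description of the control. The fibroblasts were enriched for THY1, and the study depleted PECAM1-positive cells when isolating them for its characterization of converted cells, a step its methods list as optional. No sort before RNA isolation is named, so each library was read as the RNA of a whole culture. The labels do not say that the 2 libraries of a group came from separate fibroblast isolations, and p-values measure the spread between these libraries, which may be technical.

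TGF-beta ligands are secreted bound to latent TGF-beta binding proteins that hold them in the matrix, and once freed they signal through a type II and a type I receptor to *Smad2* and *Smad3*. Most BMPs and some GDFs use other type I receptors and activate *Smad1*, *Smad5* and *Smad9*, and both branches share *Smad4*. In the heart, TGF-beta signaling is known for fibroblast activation and for endothelial-to-mesenchymal transition, and in endothelial cells *Acvrl1*, *Eng* and *Bmpr2* carry BMP signals that restrain sprouting and set arteriovenous identity. Id genes are direct BMP targets, and *Smad6*, *Smad7*, *Skil* and *Bambi* are feedback inhibitors.

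*Sox17* was between 0 and 0.416 CPM (counts scaled to library depth) in the control libraries and between 432 and 1036 in the *Sox17*-*Erg* libraries, and *Erg* was between 0.0728 and 2.27 against 17.1 to 65.2. Total counts per library ran from 19011635 to 41240449. The summed level of 8 endothelial markers was 18.4 to 58.5 CPM in control and 311 to 772 in *Sox17*-*Erg*, and 4, 5 and 7 of the 8 were higher at Day 3, Day 7 and 4 weeks. The sum of 8 fibroblast markers stayed within 12480 to 35780 CPM in control and 10090 to 39100 in *Sox17*-*Erg*, and 1, 3 and 4 of the 8 were lower than in control. They were *Tcf21* at Day 3 (179 and 256 against 14.98 and 46.6 CPM), *Dcn*, *Pdgfra* and *Lum* at Day 7, and all of these at 4 weeks, while *Postn* was higher than in control at Day 7 and 4 weeks. Epicardial and mesothelial markers summed to 254 to 1364 CPM in control and 115 to 309 in *Sox17*-*Erg*, and 1, 3 and 5 of 5 were lower. Smooth muscle and pericyte markers were higher for 1, 5 and 4 of 7, with *Kcnj8* lower at 4 weeks, and cardiomyocyte markers were lower for 1, 2 and 3 of 6. None of the 6 macrophage markers passed edgeR's test at any time point (0 had an unadjusted p under 0.05, and DESeq2 called 0), with sums of 767 and 1186 CPM in control and 232 and 403 in *Sox17*-*Erg* at Day 7, and of 44.3 and 58.1 in replicate 1 and 373 and 280.2 in replicate 2 at 4 weeks. No marker was at 0 in both libraries of a group. In bulk RNA, fewer cells of a type and less RNA per cell cannot be told apart, and the part of these other cell types in the results that follow was not tested.

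Differences are given as log2 fold changes of *Sox17*-*Erg* over control, so a value above 0 is a higher level in *Sox17*-*Erg*, and a gene was called at an adjusted p under 0.05. Where levels are set against each other, the control libraries come first, each group with replicate 1 before replicate 2. At Day 3, 15 members were higher and 4 lower in *Sox17*-*Erg*, which is 29.4% and 7.84% of the 51 tested, beside 7.19% higher and 5.13% lower among all genes tested. At Day 7, 15 were higher and 11 lower, or 29.4% and 21.6%, beside 9.48% and 7.93%. At 4 weeks, 17 were higher and 10 lower, or 33.3% and 19.6%, beside 11.9% and 11.0%. The median log2 fold change over the members was 0.232, 0.300 and -0.001 at the 3 time points, and over all genes 0.010, 0.006 and -0.014. These shares are drawn in the plot of called genes by time point. Members thus lay on both sides, and 34 of the 51 were called at 1 or more time points, beside 4812 of all 15506 genes tested.

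**Figure D1:**
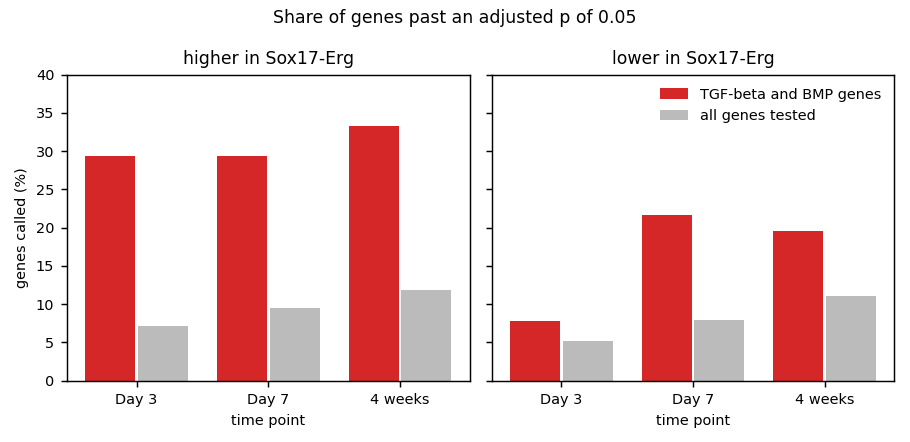
Bars give the percent of genes past an adjusted p of 0.05 at each time point (x axis), red for the 51 TGF-beta and BMP genes tested and grey for all 15506 genes tested, with higher genes on the left and lower genes on the right. The red bars stand at 29.4%, 29.4% and 33.3% for higher genes, beside grey bars at 7.19%, 9.48% and 11.9%.

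The counts leaned on single libraries at each time point. The share of all genes called in these smaller fits is not given, so the shifts are not read as particular to the members. Without control Day 3 replicate 1 or 2, 4 and 3 members were higher at Day 3, and without *Sox17*-*Erg* Day 3 replicate 1 or 2, 4 and 9. Without *Sox17*-*Erg* 4 weeks replicate 1 or 2, which enter only through the shared spread, 8 and 9 were. Lower members at Day 3 numbered 0 in edgeR without either control library or *Sox17*-*Erg* replicate 1 of that day (5 or 6 at an unadjusted p under 0.05), 2 without *Sox17*-*Erg* Day 3 replicate 2 and 7 without *Sox17*-*Erg* Day 7 replicate 2. At Day 7 the 11 lower members became 4 without control Day 7 replicate 2 or *Sox17*-*Erg* Day 7 replicate 1. At 4 weeks the 10 lower members became 4 without *Sox17*-*Erg* 4 weeks replicate 1 and 6 without its replicate 2 or control 4 weeks replicate 1, and the 17 higher members became 11 without *Sox17*-*Erg* 4 weeks replicate 1. Of the 19 calls at Day 3, those of *Gdf6* and *Fst* passed without any 1 library. Of the 26 calls at Day 7, 12 did, namely *Tgfb2*, *Bmp6*, *Inhba*, *Ltbp1*, *Ltbp4*, *Acvr2a*, *Skil*, *Fst*, *Fstl3*, *Id4*, *Tgfbr1* and *Tgfbr3*. Of the 27 at 4 weeks, 13 did, namely *Tgfb1*, *Tgfb2*, *Bmp6*, *Inhba*, *Ltbp1*, *Ltbp4*, *Acvr1*, *Skil*, *Fstl3*, *Id4*, *Tgfbr1*, *Acvrl1* and *Smad3*. With each time point fitted alone, on 2 residual degrees of freedom, 15 of the 26 calls at Day 7 did not pass, those of *Bmp2*, *Gdf6*, *Gdf10*, *Ltbp4*, *Tgfbr3*, *Acvr1*, *Acvr1b*, *Acvrl1*, *Bmpr1a*, *Bmpr2*, *Smad3*, *Smad7*, *Chrd*, *Id2* and *Id4*. The same fit lost *Tgfbi*, *Acvr2b* and *Id4* at Day 3 and *Bmpr1a*, *Bmpr2*, *Smad1*, *Bambi* and *Fstl1* at 4 weeks. With DESeq2 size factors *Ltbp4*, *Smad1* and *Smad2* did not pass at Day 3 nor *Eng* at 4 weeks, and with no filter on low counts *Bmpr1a* did not at Day 7 nor *Bmpr2* at 4 weeks. The highest adjusted p that a call reached without 1 library was 0.309 at Day 3, for *Smad1* without *Sox17*-*Erg* Day 3 replicate 1, 0.218 at Day 7, for *Acvr1b* without *Sox17*-*Erg* Day 7 replicate 1, and 0.232 at 4 weeks, for *Eng* without control 4 weeks replicate 2.

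**Figure D2:**
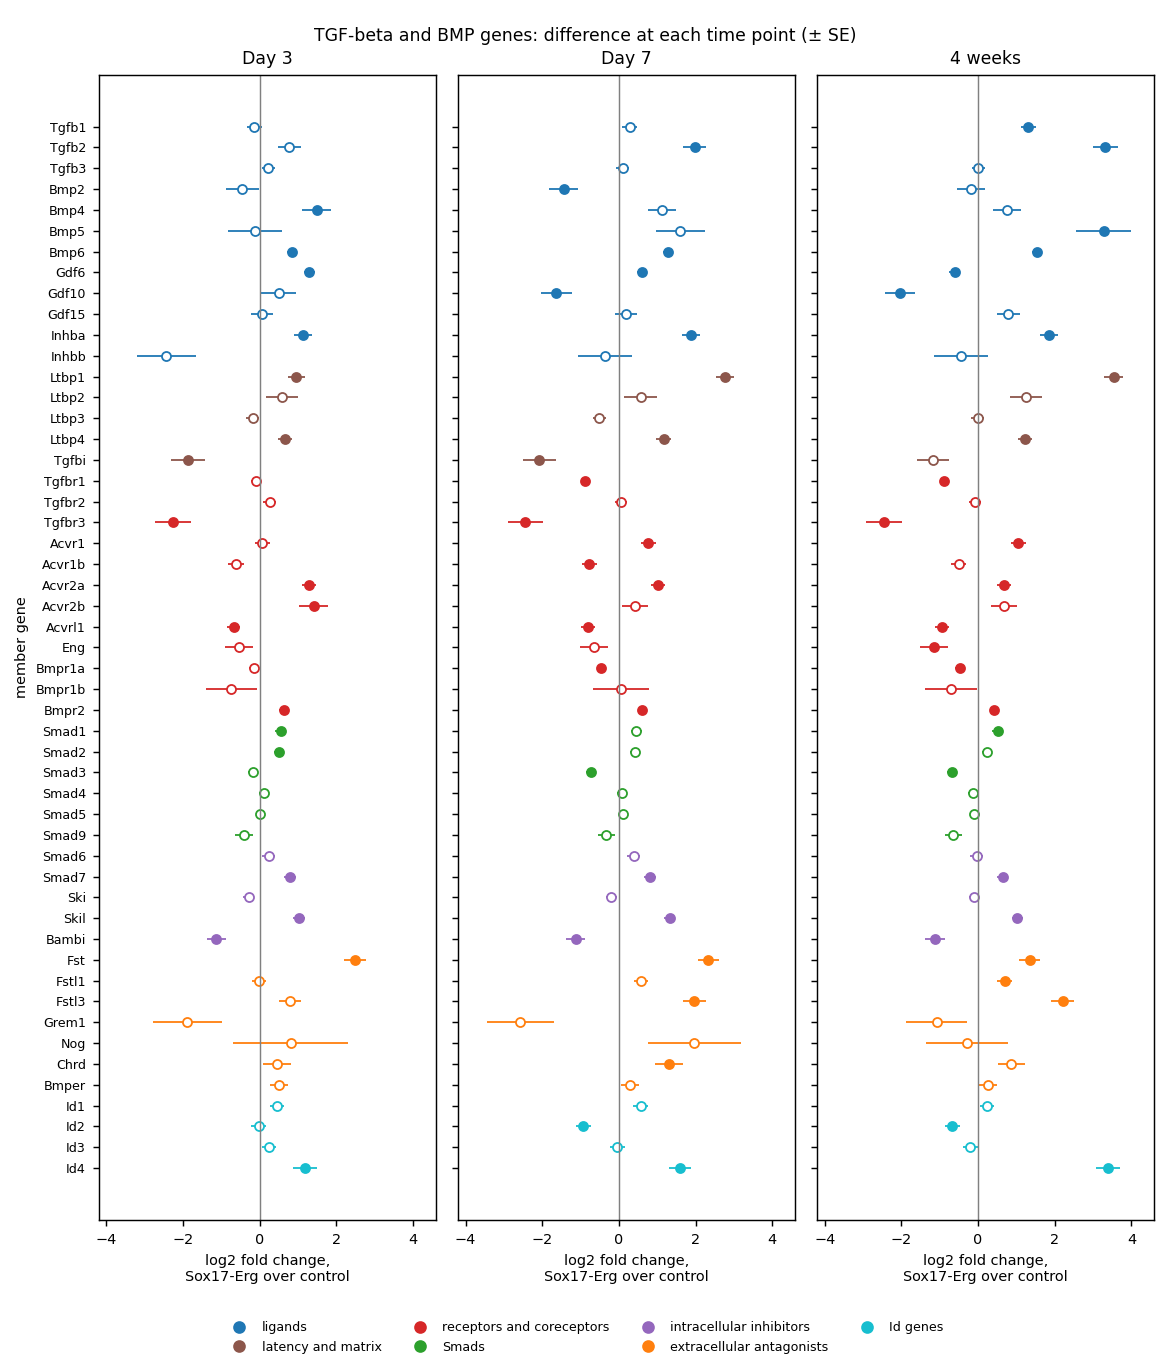
Each row is 1 of the 51 TGF-beta and BMP genes tested and each panel a time point, the x axis is the log2 fold change of *Sox17*-*Erg* over control, bars are ± 1 SE of the fit, and filled points passed an adjusted p of 0.05. *Ltbp1*, *Tgfb2* and *Id4* move to the right from Day 3 to 4 weeks (0.96 to 3.54 for *Ltbp1*), and *Gdf6* crosses from 1.29 to -0.61.

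At all 3 time points 10 members were higher (*Bmp6*, *Inhba*, *Ltbp1*, *Ltbp4*, *Acvr2a*, *Bmpr2*, *Smad7*, *Skil*, *Fst* and *Id4*) and 3 were lower (*Tgfbr3*, *Acvrl1* and *Bambi*), of 51 tested and beside 3.59% and 2.27% of all genes. With a replicate block within each time point, which pairs the libraries of the same number, 13 were higher at all 3, adding *Tgfb2*, *Smad1* and *Fstl3*, and 4 lower, adding *Acvr1b*, beside 5.86% and 5.61% of all genes in that fit. By time point, 18, 20 and 19 members were then higher, beside 12.7%, 13.8% and 15.5% of all genes, and 6, 14 and 12 lower, beside 10.4%, 13.3% and 15.5%. Promoter windows from RefSeq (GRCm38.p6), reduced to the 250 bases before each transcription start, were matched for 38 of the 52 members in 47 windows, for 7 of the 10 higher genes called without the block and for none of *Tgfbr3*, *Acvrl1* and *Bambi*. They were searched on both strands for GGAAGT, a form of the ETS motif bound by the family of *Erg*, for ACAAT, the core of the SOX motif, and for GGCGCC, a GC-rich motif bound by BMP Smads. Of the 47 windows, 5 held the ETS letters (10.6%, beside 19.7% of all 32851 windows), 8 the SOX letters (17.02% beside 27.7%) and 13 the GC-rich letters (27.7% beside 9.6%). The median GC content was 66.4% in the windows of the members and 52.4% in all windows. The motifs do not overlap each other in the windows shown.

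Of the 7 genes higher at all 3 time points that have a window, 5 have a single one, and the 4 of those that hold a match are printed 5′ to 3′ to show where it lies, with the match in capitals. *Inhba* and *Acvr2a* hold the SOX letters (as ATTGT on the printed strand in *Inhba*) and *Bmpr2* and *Id4* the GC-rich letters, and *Bmp6* holds none of the 3. The windows are chr13:16011601-16011850 for *Inhba*, chr2:48813859-48814108 for *Acvr2a*, chr1:59764029-59764278 for *Bmpr2* and chr13:48260866-48261115 for *Id4*, all on the plus strand. A match describes the letters of the window. The windows follow RefSeq starts, and by the GENCODE positions the *Bmpr2* window lies inside the gene, which starts at chr1:59763400.
*Inhba*: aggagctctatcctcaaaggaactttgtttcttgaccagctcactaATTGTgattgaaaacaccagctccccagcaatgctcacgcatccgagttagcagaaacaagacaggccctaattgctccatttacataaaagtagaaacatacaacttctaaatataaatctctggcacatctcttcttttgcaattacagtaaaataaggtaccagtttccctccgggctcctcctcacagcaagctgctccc
*Acvr2a*: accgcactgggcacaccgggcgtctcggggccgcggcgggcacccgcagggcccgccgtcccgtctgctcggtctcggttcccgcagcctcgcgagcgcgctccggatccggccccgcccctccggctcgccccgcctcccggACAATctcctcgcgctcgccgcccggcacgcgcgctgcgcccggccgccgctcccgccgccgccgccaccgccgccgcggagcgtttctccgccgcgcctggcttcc
*Bmpr2*: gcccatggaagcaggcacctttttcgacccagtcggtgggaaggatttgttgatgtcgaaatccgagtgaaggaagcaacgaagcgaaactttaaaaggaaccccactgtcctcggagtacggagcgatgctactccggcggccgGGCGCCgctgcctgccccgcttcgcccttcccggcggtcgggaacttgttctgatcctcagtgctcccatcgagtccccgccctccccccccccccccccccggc
*Id4*: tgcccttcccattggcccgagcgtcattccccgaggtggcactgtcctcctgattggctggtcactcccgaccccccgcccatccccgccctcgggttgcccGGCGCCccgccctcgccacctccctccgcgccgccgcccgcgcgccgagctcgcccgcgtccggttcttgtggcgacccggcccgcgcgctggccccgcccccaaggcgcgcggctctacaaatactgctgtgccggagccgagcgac

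The counts by role that follow describe small groups, and each is to be read beside the shares of all genes given above, 7.19% to 11.9% for higher and 5.13% to 11.0% for lower genes. Among the 12 ligands tested, 4 were higher at Day 3, 4 higher and 2 lower at Day 7, and 5 higher and 2 lower at 4 weeks. *Tgfb2*, a TGF-beta isoform that needs the coreceptor *Tgfbr3* for strong receptor binding, stood at 66.1 and 59.4 CPM in control and 126 and 88.6 in *Sox17*-*Erg* at Day 3. For *Tgfb2* the Day 7 values were 80.95 and 59.4 against 333 and 219.7, and those of 4 weeks 51.1 and 35.99 against 522 and 352. The *Sox17*-*Erg* libraries lay above both control libraries at each time point, by 1.98 ± 0.30 (SE) on the log2 scale at Day 7 (adjusted p = 0.00274) and by 3.32 ± 0.32 at 4 weeks, a 10.02-fold difference (adjusted p = 0.000152). At Day 3 its difference of 0.78 did not pass (adjusted p = 0.114), and with a replicate block within each time point it did (0.76, adjusted p = 0.00615). *Tgfb1*, the isoform most tied to fibrosis, stood at 79.6 and 87.5 CPM in control and 62.04 and 89.4 in *Sox17*-*Erg* at Day 3. *Tgfb1* then read 80.9 and 72.7 against 90.3 and 96.1 at Day 7 and 48.7 and 66.04 against 156 and 129 at 4 weeks. Its groups overlapped at Day 3, and at 4 weeks both *Sox17*-*Erg* libraries were above both controls by 1.31 ± 0.20 (adjusted p = 0.00183). *Tgfb3* was at 114 to 180.2 CPM over the 12 libraries and was not called at any time point.

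*Inhba*, which encodes the subunit of activin A, stood at 110.1 and 106 CPM in control and 228 and 245 in *Sox17*-*Erg* at Day 3. *Inhba* values at Day 7 were 42.7 and 28.8 against 129.9 and 134, followed by 20.5 and 32.8 against 90.2 and 102 at 4 weeks. It fell with time in control and in *Sox17*-*Erg*, and both *Sox17*-*Erg* libraries were above both controls throughout, by 1.13 ± 0.23, 1.89 ± 0.23 and 1.85 ± 0.23 (adjusted p = 0.0162, 0.001003 and 0.000667). The Day 3 call of *Inhba* was lost in 3 of the 12 fits that leave out 1 library, with adjusted p = 0.1204 without control Day 3 replicate 2. *Inhbb*, the other activin subunit, was at 1.97 to 20.2 CPM, with 2 control libraries at 14.01 and 20.2 and 2 *Sox17*-*Erg* libraries at 1.97 and 4.31 at Day 3 (adjusted p = 0.0685), a difference that passed with the block within time points (-2.50, adjusted p = 0.004004).

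*Bmp6*, a BMP ligand made by endothelial cells in other organs, stood at 96.9 and 108 CPM in control and 195 and 171 in *Sox17*-*Erg* at Day 3. *Bmp6* was at 132 and 150.5 against 362 and 319.5 by Day 7, and after 4 weeks at 159 and 166 against 470.4 and 464. Its replicates lay close together and did not overlap between groups, and the differences of 0.83 ± 0.13, 1.27 ± 0.13 and 1.53 ± 0.13 passed at each time point (adjusted p = 0.005796, 0.000373 and 7.82e-05). The call at Day 3 was lost without *Sox17*-*Erg* Day 3 replicate 1 (adjusted p = 0.0668). *Bmp4*, a ligand of heart and vessel development, stood at 11.97 and 14.01 CPM in control and 45.9 and 26.9 in *Sox17*-*Erg* at Day 3. By Day 7 *Bmp4* was at 17.4 and 39.5 against 66.9 and 56.9, and by 4 weeks at 35.5 and 28.8 against 61.5 and 47.1. It was higher in both *Sox17*-*Erg* libraries at each time point, 2.799-fold at Day 3 (adjusted p = 0.0353). The Day 3 call was lost in 6 of the 12 fits without 1 library, over which the log2 difference ran from 1.01 to 1.82. *Bmp4* did not pass at Day 7 (adjusted p = 0.0638, and with the block 1.23, adjusted p = 0.0398) or at 4 weeks (adjusted p = 0.168).

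*Gdf6*, a GDF of bone and joint development, stood at 94.7 and 96.3 CPM in control and 223 and 245 in *Sox17*-*Erg* at Day 3. For *Gdf6* the Day 7 values were 129 and 103 against 171 and 181, and those of 4 weeks 162 and 142 against 108 and 92.2. The order of the groups turned: both *Sox17*-*Erg* libraries were above both controls at Day 3 and Day 7, by 1.29 ± 0.14 and 0.60 ± 0.14 (adjusted p = 0.00117 and 0.0179), and below both at 4 weeks, with a difference of -0.61 ± 0.14 (adjusted p = 0.0122). The Day 7 call was lost without control Day 7 replicate 2 (adjusted p = 0.108) and the 4-week call without control 4 weeks replicate 1 (adjusted p = 0.0828), and the direction held. *Gdf10*, also called BMP3b, stood at 0.9096 and 1.53 CPM in control and 1.67 and 1.72 in *Sox17*-*Erg* at Day 3. *Gdf10* then read 5.34 and 8.801 against 1.43 and 3.21 at Day 7 and 32.95 and 26.7 against 5.88 and 8.59 at 4 weeks. It rose with time in both groups, and the *Sox17*-*Erg* libraries were 3.101-fold lower at Day 7 and 4.12-fold lower at 4 weeks (adjusted p = 0.0253 and 0.00561, and 0.162 and 0.0558 without replicate 1 of *Sox17*-*Erg* at that time point). The Day 7 difference of *Gdf10* moved from -1.63 to -2.34 on the log2 scale without *Sox17*-*Erg* Day 7 replicate 2.

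*Bmp2*, a ligand of valve formation, stood at 1.31 and 2.77 CPM in control and 1.62 and 1.34 in *Sox17*-*Erg* at Day 3. *Bmp2* values at Day 7 were 9.56 and 18.7 against 4.77 and 5.62, followed by 11.6 and 13.2 against 9.31 and 12.3 at 4 weeks. It was lower in *Sox17*-*Erg* at Day 7, with a difference of -1.44 ± 0.37 (adjusted p = 0.0291, and 0.187 without control Day 7 replicate 2, the highest library), and the groups overlapped at Day 3 and 4 weeks. *Bmp5* was the lowest ligand called, at 0.437 and 0.324 CPM in control and 0.405 and 0.302 in *Sox17*-*Erg* at Day 3. *Bmp5* was at 0.615 and 0.201 against 1.76 and 0.703 by Day 7, and after 4 weeks at 0.1002 and 0.163 against 0.956 and 1.59. With 4 counts in each control library and 27 and 43 in the *Sox17*-*Erg* libraries at 4 weeks, its difference of 3.28 ± 0.72 passed (adjusted p = 0.0104, and 0.0868 without control 4 weeks replicate 1), and with the block it also passed at Day 7 (1.62, adjusted p = 0.0328). *Gdf15*, a stress-induced ligand, was at 1.203 to 4.35 CPM and was not called. Per kilobase of exon, the highest ligand means at 4 weeks in control were those of *Tgfb3* (46.97 CPM), *Gdf6* (43.1) and *Bmp6* (41.5), and in *Sox17*-*Erg* those of *Bmp6* (119.7), *Tgfb2* (75.5) and *Tgfb3* (46.9).

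Of the 5 genes of latency and matrix, 2 were higher at each time point and 1 was lower at Day 3 and Day 7. *Ltbp1*, which tethers latent TGF-beta to fibrillin and fibronectin, stood at 139.5 and 116 CPM in control and 250.3 and 246 in *Sox17*-*Erg* at Day 3. By Day 7 *Ltbp1* was at 74.8 and 51.8 against 516 and 347, and by 4 weeks at 45.2 and 54.6 against 594 and 563.7. The control libraries fell with time while those of *Sox17*-*Erg* rose, and the difference was 0.96 ± 0.22, then 2.77 ± 0.24 and lastly 3.54 ± 0.25, or 11.6-fold (adjusted p = 0.02798, 0.000164 and 2.89e-05). At Day 3 the call was lost in 5 of 12 fits without 1 library, with adjusted p = 0.195 without control Day 3 replicate 2. *Ltbp4*, which also supports elastic fibers, stood at 275 and 305 CPM in control and 447 and 471 in *Sox17*-*Erg* at Day 3. For *Ltbp4* the Day 7 values were 986 and 1382 against 2865 and 2450, and those of 4 weeks 2064 and 2030 against 4757 and 4775. It rose with time in both groups and was 2.25-fold higher in *Sox17*-*Erg* at Day 7 and 2.33-fold at 4 weeks (adjusted p = 0.00372 and 0.00199). At Day 3 its difference of 0.66 stood at the threshold (adjusted p = 0.0497), and did not pass with a replicate block over all libraries (0.66, adjusted p = 0.0546) or in 10 of 12 fits without 1 library (up to 0.221 without control Day 3 replicate 1).

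*Tgfbi*, a TGF-beta induced matrix protein, stood at 19.8 and 17.7 CPM in control and 2.58 and 7.58 in *Sox17*-*Erg* at Day 3. *Tgfbi* then read 31.03 and 18.7 against 4.47 and 7.43 at Day 7 and 16.6 and 14.96 against 6.76 and 7.22 at 4 weeks. Every *Sox17*-*Erg* library was below every control library of its time point, with differences of -1.87 ± 0.44 and -2.08 ± 0.44 that passed at Day 3 and Day 7 (adjusted p = 0.0287 and 0.0126) and one of -1.18 that did not at 4 weeks (adjusted p = 0.0801). Without *Sox17*-*Erg* replicate 1 of the same time point the Day 3 and Day 7 values had adjusted p = 0.136 and 0.112, and without *Sox17*-*Erg* Day 3 replicate 2 the Day 3 difference was -2.86. *Ltbp2* and *Ltbp3* were not called, at 45.98 to 254 and 214 to 594 CPM over the 12 libraries. With the block within time points *Ltbp2* passed at 4 weeks (1.47, adjusted p = 0.00927) and *Ltbp3* at Day 7 (-0.51, adjusted p = 0.0192). *Ltbp4* had the highest level per kilobase of the 5 genes in both groups at 4 weeks, at 317 CPM in control and 738 in *Sox17*-*Erg*, and *Ltbp1* was at 4.67 and 54.1.

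Of the 12 receptors and coreceptors, 3 were higher at each time point, while 2 were lower at Day 3 and 5 at both later times. *Tgfbr1*, the type I receptor for TGF-beta also called ALK5, stood at 50.8 and 49.99 CPM in control and 46.7 and 46.97 in *Sox17*-*Erg* at Day 3. *Tgfbr1* values at Day 7 were 81.95 and 87.8 against 48 and 43.6, followed by 102 and 113 against 53.8 and 62.4 at 4 weeks. Groups lay close at Day 3, and afterwards both *Sox17*-*Erg* libraries were below both controls, with differences of -0.89 ± 0.11 at Day 7 and -0.89 ± 0.11 at 4 weeks (adjusted p = 0.000966 and 0.000586). Its type II partner *Tgfbr2* stood at 105 and 111 CPM in control and 129.8 and 129 in *Sox17*-*Erg* at Day 3. *Tgfbr2* was at 209 and 269 against 262 and 232 by Day 7, and after 4 weeks at 340.1 and 268 against 263 and 312. It rose with time in both groups and was not called between them at any time point. *Tgfbr3*, the coreceptor betaglycan, stood at 82.96 and 106 CPM in control and 12.4 and 27.1 in *Sox17*-*Erg* at Day 3. By Day 7 *Tgfbr3* was at 181 and 259 against 22.4 and 58.9, and by 4 weeks at 289.9 and 259 against 46.5 and 53.97. It was lower in every *Sox17*-*Erg* library, 4.76-fold at Day 3, 5.43-fold at Day 7 and 5.46-fold at 4 weeks (adjusted p = 0.0181, 0.00772 and 0.00536), with adjusted p = 0.142 at Day 3 without *Sox17*-*Erg* Day 3 replicate 1 and 0.0538 at 4 weeks without *Sox17*-*Erg* 4 weeks replicate 1. The log2 difference of *Tgfbr3* moved from -2.25 to -2.93 without *Sox17*-*Erg* Day 3 replicate 2 and, at Day 7, from -2.44 to -3.33 without *Sox17*-*Erg* Day 7 replicate 2. Exons of 15 of the 52 members, among them *Tgfb2*, *Bmp6*, *Acvrl1*, *Eng*, *Fst* and *Id4*, overlap a gene on the other strand, and though the library kit keeps strand the strand setting of the counting is not given in the sources used here. An exon of *Tgfbr3* overlaps the predicted gene Gm43422 on the same strand, and 4.13% of its 31-base words occur in other genes.

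**Figure D3:**
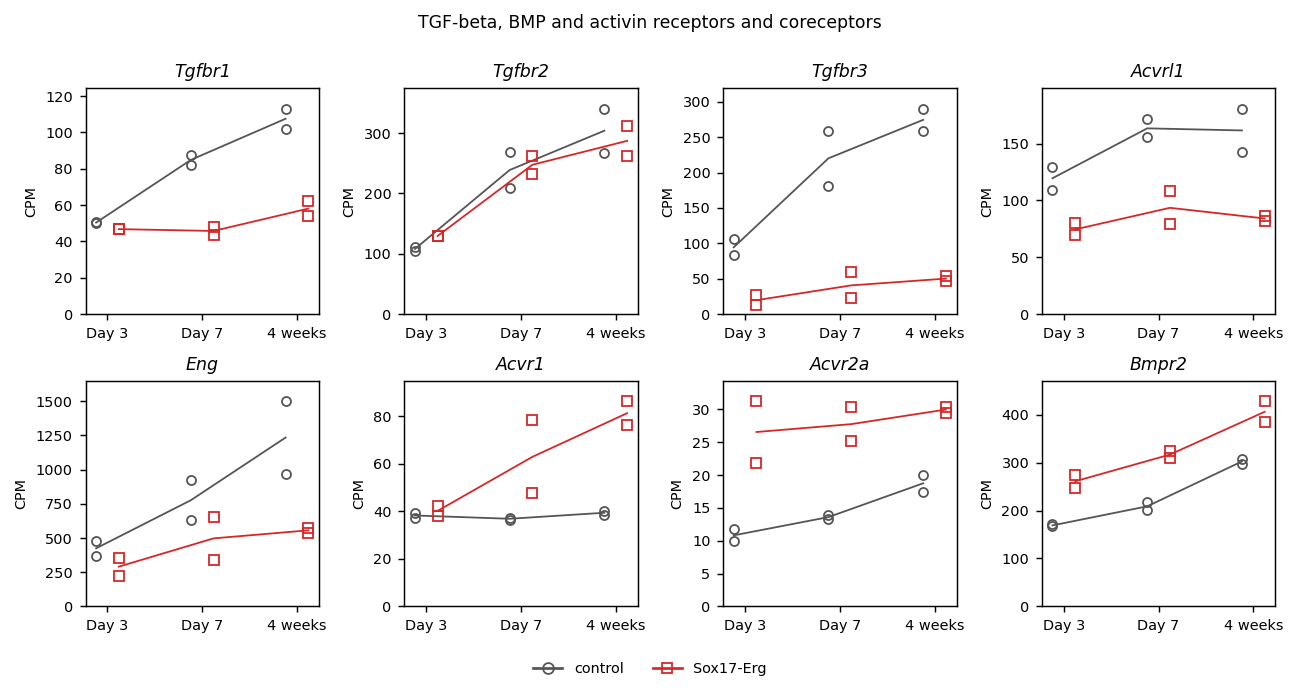
TMM-normalized CPM of 8 receptors and coreceptors (y axis from 0, a scale for each gene) at Day 3, Day 7 and 4 weeks, with circles for control libraries, squares for *Sox17*-*Erg* libraries and lines through the means of 2 libraries. *Tgfbr1*, *Tgfbr3*, *Acvrl1* and *Eng* lie below control at 4 weeks (53.8 and 62.4 CPM against 102 and 113 for *Tgfbr1*), while *Acvr1*, *Acvr2a* and *Bmpr2* lie above control.

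*Acvrl1* and *Eng*, which are best known from endothelial cells, were lower in *Sox17*-*Erg* where called, in the libraries in which endothelial markers were higher. *Acvrl1*, the type I receptor ALK1 for BMP9 and BMP10, stood at 109.5 and 129.6 CPM in control and 69.3 and 79.8 in *Sox17*-*Erg* at Day 3. For *Acvrl1* the Day 7 values were 156 and 171 against 79.01 and 108, and those of 4 weeks 143 and 181 against 82.2 and 86.1. Every *Sox17*-*Erg* library was below every control library of its time point, with differences of -0.68 ± 0.18, -0.81 ± 0.18 and -0.94 ± 0.18 (adjusted p = 0.0386, 0.0146 and 0.00522). Of the 12 fits without 1 library, the Day 3 call was lost in 6 and the Day 7 call in 2. Over these fits the difference ran from -0.80 to -0.59 at Day 3 and from -1.09 to -0.60 at Day 7. *Eng*, the coreceptor endoglin, stood at 369 and 481 CPM in control and 225 and 356 in *Sox17*-*Erg* at Day 3. *Eng* then read 630.5 and 922 against 341 and 654 at Day 7 and 968 and 1501 against 576 and 536 at 4 weeks. Its groups overlapped at Day 7, and its difference of -1.15 ± 0.36 passed at 4 weeks with little margin (adjusted p = 0.0496), was lost in 10 of 12 fits without 1 library (up to 0.232 without control 4 weeks replicate 2), and passed at Day 7 with the block (-0.69, adjusted p = 0.0416). Over the same libraries the endothelial marker *Cdh5* was at 0.9096 and 14.3 CPM in control and 208 and 148 in *Sox17*-*Erg* at Day 3. It was at 0.230 and 8.08 against 400 and 248 at Day 7 and at 0.251 and 0.569 against 496 and 394 at 4 weeks. Control replicate 2 had more *Cdh5*, *Eng* and *Acvrl1* than control replicate 1 at each time point, and a link between them was not tested. Macrophages, epicardial cells and fibroblasts also express some of these receptors, the marker sums of the first 2 are given above, and their part was not tested.

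*Acvr2a*, a type II receptor for activins and BMPs, stood at 11.8 and 9.89 CPM in control and 31.3 and 21.9 in *Sox17*-*Erg* at Day 3. *Acvr2a* values at Day 7 were 13.3 and 13.9 against 30.3 and 25.2, followed by 17.4 and 20.1 against 30.4 and 29.5 at 4 weeks. Both *Sox17*-*Erg* libraries were above both controls each time, by 1.29 ± 0.19, 1.03 ± 0.18 and 0.68 ± 0.18 (adjusted p = 0.00449, 0.00569 and 0.02505, the first 0.0515 without control Day 3 replicate 2 and the last 0.147 without control 4 weeks replicate 1). *Acvr2b*, its paralog, stood at 0.473 and 0.925 CPM in control and 1.87 and 1.81 in *Sox17*-*Erg* at Day 3. *Acvr2b* was at 1.54 and 1.69 against 2.04 and 2.29 by Day 7, and after 4 weeks at 2.35 and 1.46 against 3.19 and 2.93. It was higher at Day 3 by 1.41 ± 0.38 (adjusted p = 0.0419, on 13 to 42 counts) and was not called later. The Day 3 call of *Acvr2b* was lost in 10 of the 12 fits without 1 library, over which the difference ran from 0.99 to 1.91. *Bmpr2*, the type II receptor whose loss is known from pulmonary arterial hypertension, stood at 171 and 167 CPM in control and 274 and 248 in *Sox17*-*Erg* at Day 3. By Day 7 *Bmpr2* was at 200.5 and 217 against 324 and 309, and by 4 weeks at 308 and 297 against 428 and 384. The *Sox17*-*Erg* libraries were 1.54-, 1.52- and 1.34-fold higher with no overlap (adjusted p = 0.0111, 0.00727 and 0.0244), and without replicate 1 of *Sox17*-*Erg* at that time point adjusted p was 0.124, 0.0538 and 0.1404.

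*Acvr1*, the type I receptor ALK2, stood at 37.1 and 39.5 CPM in control and 42.4 and 38.1 in *Sox17*-*Erg* at Day 3. For *Acvr1* the Day 7 values were 36.5 and 37.3 against 78.3 and 47.6, and those of 4 weeks 40.2 and 38.7 against 86.4 and 76.2. The groups overlapped at Day 3 and were apart by 0.77 ± 0.20 at Day 7 and 1.04 ± 0.20 at 4 weeks (adjusted p = 0.0271 and 0.00528), the Day 7 value resting on *Sox17*-*Erg* Day 7 replicate 1 (adjusted p = 0.157 without it). *Bmpr1a*, the type I BMP receptor ALK3, stood at 113 and 104 CPM in control and 94.4 and 101 in *Sox17*-*Erg* at Day 3. *Bmpr1a* then read 179 and 172 against 122 and 133 at Day 7 and 279 and 232 against 192 and 173 at 4 weeks. It was 1.37- and 1.398-fold lower in *Sox17*-*Erg* at Day 7 and 4 weeks (adjusted p = 0.0326 and 0.0201, and 0.201 without *Sox17*-*Erg* Day 7 replicate 1 and 0.1398 without control 4 weeks replicate 1). *Acvr1b*, the activin receptor ALK4, stood at 19.5 and 21.2 CPM in control and 13.2 and 13.4 in *Sox17*-*Erg* at Day 3. *Acvr1b* values at Day 7 were 31.5 and 43.6 against 18.2 and 26.01, followed by 44.5 and 35.5 against 29.3 and 26.9 at 4 weeks. It was lower in each *Sox17*-*Erg* library and passed at Day 7 (-0.77 ± 0.20, adjusted p = 0.0322, and 0.218 without *Sox17*-*Erg* Day 7 replicate 1), and with the block within time points also at Day 3 (-0.61, adjusted p = 0.00832) and 4 weeks (-0.50, adjusted p = 0.00848). *Bmpr1b* was at 0.0708 to 0.694 CPM, with 2 to 15 counts in every library, and was not called. Per kilobase, *Eng* had the highest level of the 12 in both groups at 4 weeks (305 CPM in control and 137 in *Sox17*-*Erg*).

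Of the 6 Smads, 2 were higher at Day 3 (33.3%), 1 was lower at Day 7 (16.7%), and 1 was higher and 1 lower at 4 weeks. In a role of 6 genes a single call is near the shares of all genes, 7.93% lower at Day 7 and 11.9% higher and 11.0% lower at 4 weeks. *Smad3*, which carries TGF-beta and activin signals, stood at 58.7 and 68.8 CPM in control and 54.6 and 58.3 in *Sox17*-*Erg* at Day 3. *Smad3* was at 77.96 and 74.7 against 41 and 51.7 by Day 7, and after 4 weeks at 62.4 and 69.3 against 41.02 and 40.6. It was below both controls in each *Sox17*-*Erg* library and passed at Day 7 (-0.72 ± 0.13, adjusted p = 0.00665, and 0.0567 without *Sox17*-*Erg* Day 7 replicate 1) and at 4 weeks (-0.69 ± 0.13, adjusted p = 0.00568). *Smad2*, its partner in the same branch, stood at 37.95 and 35.1 CPM in control and 52.8 and 50.6 in *Sox17*-*Erg* at Day 3. By Day 7 *Smad2* was at 38.02 and 33.1 against 51.6 and 43.4, and by 4 weeks at 32.2 and 40.1 against 43.5 and 41.7. It was higher by 0.50 ± 0.14 at Day 3 (adjusted p = 0.0465, and 0.291 without *Sox17*-*Erg* Day 3 replicate 1), and at Day 7 passed with the block within time points (0.41, adjusted p = 0.0348). The Day 3 call of *Smad2* was lost in 8 of 12 fits without 1 library.

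*Smad1*, of the BMP branch, stood at 22.96 and 22.4 CPM in control and 35.4 and 30.98 in *Sox17*-*Erg* at Day 3. For *Smad1* the Day 7 values were 25.04 and 22.6 against 35.4 and 29.8, and those of 4 weeks 25.01 and 21.8 against 36.7 and 29.8. It was above both controls in each *Sox17*-*Erg* library, 1.46-fold at Day 3 and 1.42-fold at 4 weeks (adjusted p = 0.04202 and 0.0346), and at Day 7 passed with the block (0.45, adjusted p = 0.0156). Its Day 3 call was lost in 9 of the 12 fits without 1 library, over which the log2 difference ran from 0.41 to 0.64. Its 4-week call was lost in 4 of 12 such fits, with differences from 0.34 to 0.62. *Smad5* and *Smad9*, also of the BMP branch, and the shared *Smad4* were not called, at 48.4 to 63.5, 5.72 to 19.6 and 65.3 to 93.9 CPM over the 12 libraries, and *Smad9* passed at 4 weeks with the block (-0.64, adjusted p = 0.0122). An exon of *Smad5* overlaps the predicted gene Gm27301 on the same strand. Per kilobase, *Smad4* was the highest of the 6 in both groups at 4 weeks (22.4 and 20.3 CPM).

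Of the 5 genes grouped as intracellular inhibitors, *Smad7* and *Skil* were higher and *Bambi* was lower at each time point. As a pseudoreceptor *Bambi* is not strictly intracellular and is only counted in this group. *Smad7*, which blocks and degrades the type I receptors, stood at 53.7 and 49.3 CPM in control and 96.2 and 82.9 in *Sox17*-*Erg* at Day 3. *Smad7* then read 80.9 and 69.8 against 148 and 116 at Day 7 and 87.9 and 82.02 against 143 and 121 at 4 weeks. The *Sox17*-*Erg* libraries did not overlap the controls and were higher by 0.80 ± 0.15, 0.81 ± 0.15 and 0.64 ± 0.15 (adjusted p = 0.0136, 0.00708 and 0.0149), with 0.143, 0.0607 and 0.109 without replicate 1 of *Sox17*-*Erg* at that time point. *Skil*, which encodes the Smad corepressor SnoN, stood at 63.2 and 57.5 CPM in control and 137 and 109 in *Sox17*-*Erg* at Day 3. *Skil* values at Day 7 were 56.9 and 60.97 against 162 and 133, followed by 71.96 and 80.8 against 160.2 and 149 at 4 weeks. It was 2.04-, 2.501- and 2.02-fold higher (adjusted p = 0.00419, 0.000589 and 0.00129, the first 0.0513 without control Day 3 replicate 2), again with no overlap. *Bambi*, a pseudoreceptor that lacks the kinase, stood at 16.99 and 14.9 CPM in control and 6.78 and 7.71 in *Sox17*-*Erg* at Day 3. *Bambi* was at 13.4 and 15.6 against 7.003 and 6.28 by Day 7, and after 4 weeks at 11.6 and 14.96 against 4.46 and 7.704. Every *Sox17*-*Erg* library was below every control library of its time point, with differences of -1.14 ± 0.25, -1.12 ± 0.25 and -1.12 ± 0.25 (adjusted p = 0.0221, 0.0157 and 0.0114). Each of the 3 *Bambi* calls was lost without 1 library, with adjusted p = 0.159 without *Sox17*-*Erg* Day 3 replicate 1, 0.0806 without *Sox17*-*Erg* Day 7 replicate 1 and 0.0631 without control 4 weeks replicate 2. *Ski*, the paralog of *Skil*, and *Smad6*, which blocks the BMP branch, were not called, at 140 to 269 and 60.9 to 197 CPM.

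Of the 7 extracellular antagonists, 1 was higher at Day 3 and 3 at Day 7 and 4 weeks. *Fst*, which encodes the activin antagonist follistatin, stood at 7.09 and 4.99 CPM in control and 41.5 and 26.8 in *Sox17*-*Erg* at Day 3. By Day 7 *Fst* was at 8.33 and 7.64 against 33.2 and 47.1, and by 4 weeks at 7.64 and 5.82 against 18.4 and 15.9. Its *Sox17*-*Erg* libraries were 5.63-fold higher at Day 3, 5.02-fold at Day 7 and 2.54-fold at 4 weeks (adjusted p = 0.00139, 0.000826 and 0.00706, the last 0.0503 without *Sox17*-*Erg* 4 weeks replicate 1). *Fstl3*, a relative that also binds activins and myostatin, stood at 38.6 and 35.1 CPM in control and 62.04 and 65.5 in *Sox17*-*Erg* at Day 3. For *Fstl3* the Day 7 values were 21.5 and 13.6 against 86.1 and 50.9, and those of 4 weeks 18.8 and 25.9 against 119 and 87.7. It was above both controls in each *Sox17*-*Erg* library, by 1.96 ± 0.30 at Day 7 and 2.21 ± 0.30 at 4 weeks (adjusted p = 0.00285 and 0.00107), and at Day 3 passed with the block (0.79, adjusted p = 0.0297). So *Inhba* and the genes of these 2 activin-binding proteins were all higher in *Sox17*-*Erg* at Day 7 and 4 weeks.

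*Chrd*, which encodes the BMP antagonist chordin, stood at 2.58 and 1.76 CPM in control and 3.14 and 2.84 in *Sox17*-*Erg* at Day 3. *Chrd* then read 2.496 and 2.09 against 5.49 and 5.98 at Day 7 and 4.96 and 2.12 against 6.87 and 6.18 at 4 weeks. It passed at Day 7 (1.32 ± 0.37, adjusted p = 0.0376) and, with the block, at 4 weeks (0.97, adjusted p = 0.0476). The Day 7 call of *Chrd* was lost in 8 of the 12 fits without 1 library, over which the difference ran from 1.20 to 1.45. *Fstl1*, an abundant secreted follistatin-like protein of the heart, stood at 2469 and 2874 CPM in control and 2260 and 3013 in *Sox17*-*Erg* at Day 3. *Fstl1* values at Day 7 were 1610 and 1695 against 2643 and 2301, followed by 1033 and 1185 against 1901 and 1682 at 4 weeks. It fell with time in control and was 1.61-fold higher in *Sox17*-*Erg* at 4 weeks (adjusted p = 0.0297, and 0.161 without control 4 weeks replicate 1), and with the block also at Day 7 (0.58, adjusted p = 0.0343), and 6.66% of its 31-base words occur in other genes. *Bmper*, *Grem1* and *Nog* were not called, at 12.5 to 43.6, 0 to 2.43 and 0 to 0.551 CPM. With the block *Bmper* passed at Day 3 (0.51, adjusted p = 0.0159) and *Grem1* at Day 7 (-2.87, adjusted p = 0.0496, with 19 and 0 counts in the *Sox17*-*Erg* libraries and 45 and 43 in control). Per kilobase, *Fstl1* was the highest of the 7 in both groups at 4 weeks (226 CPM in control and 365 in *Sox17*-*Erg*).

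Of the 4 Id genes, which encode inhibitors of basic helix-loop-helix factors, 1 was higher at each time point and 1 was lower at Day 7 and 4 weeks, single calls among 4 genes from which nothing about the role is read (all genes: 7.19%, 9.48% and 11.9% higher, and 7.93% and 11.0% lower). *Id4* stood at 2.51 and 1.53 CPM in control and 4.86 and 4.44 in *Sox17*-*Erg* at Day 3. *Id4* was at 4.46 and 4.46 against 17.1 and 9.75 by Day 7, and after 4 weeks at 3.13 and 2.77 against 27.4 and 34.5. Both *Sox17*-*Erg* libraries were above both controls throughout, by 1.19 ± 0.31 at Day 3, 1.59 ± 0.29 at Day 7 and 3.38 ± 0.31 at 4 weeks, which is 10.4-fold (adjusted p = 0.0398, 0.00665 and 0.000123), and the Day 3 call was lost in 10 of 12 fits without 1 library (up to 0.229 without control Day 3 replicate 2). *Id2* stood at 21.6 and 22.8 CPM in control and 24.9 and 18.6 in *Sox17*-*Erg* at Day 3. By Day 7 *Id2* was at 51.6 and 73.1 against 36.5 and 28.96, and by 4 weeks at 87.2 and 73.2 against 51.96 and 48.96. It rose with time in both groups, and was 1.904-fold lower in *Sox17*-*Erg* at Day 7 and 1.59-fold lower at 4 weeks (adjusted p = 0.0138 and 0.03998). Of the 12 fits without 1 library, the Day 7 call of *Id2* was lost in 2 and the 4-week call in 6. Over these fits the log2 difference ran from -1.16 to -0.66 at Day 7 and from -0.78 to -0.54 at 4 weeks. *Id1* stood at 41.5 and 44.7 CPM in control and 63.3 and 54.5 in *Sox17*-*Erg* at Day 3. For *Id1* the Day 7 values were 80.5 and 73.2 against 119.5 and 109, and those of 4 weeks 109 and 69.9 against 97.7 and 113. Neither *Id1* nor *Id3*, which was at 154 to 322 CPM, was called between groups. Per kilobase at 4 weeks the order in *Sox17*-*Erg* was *Id3* (133 CPM), *Id1* (90.8), *Id2* (20.7) and *Id4* (8.04), the order in control too, where *Id4* was at 0.766.

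Many members also changed with time in culture. From Day 3 to 4 weeks 23 members were higher and 5 lower in control, beside 13.9% and 12.6% of all genes tested, and 21 were higher and 5 lower in *Sox17*-*Erg*, beside 15.1% and 15.6%. In control 9 of the 12 receptors and coreceptors rose, among them *Tgfbr1* by 1.09 ± 0.11, *Tgfbr2* by 1.49 ± 0.17 and *Bmpr1a* by 1.24 ± 0.12 (adjusted p = 0.00046, 0.000716 and 0.000461). In *Sox17*-*Erg* 5 of the 12 rose. *Ltbp4* rose 7.06-fold in control and 10.4-fold in *Sox17*-*Erg* (adjusted p = 0.000117 and 8.36e-05), and *Bmp2* 6.12- and 7.32-fold (adjusted p = 0.00239 and 0.00185). The control rise of *Bmp2* moved from 2.61 to 3.22 on the log2 scale without control Day 3 replicate 2. *Inhba* fell 4.07- and 2.46-fold (adjusted p = 0.0007503 and 0.00388), and *Bmper* 2.27- and 2.67-fold (adjusted p = 0.00785 and 0.00338). Without control Day 3 replicate 1 or 2 or control 4 weeks replicate 1, 12, 15 and 13 members were higher in control, and 3 were lower without the last. Without *Sox17*-*Erg* Day 3 replicate 1 or either *Sox17*-*Erg* library of 4 weeks 3 members were lower in *Sox17*-*Erg*.

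Whether the difference between *Sox17*-*Erg* and control itself changed from Day 3 to 4 weeks was tested as an interaction, which called 6 members, beside 3.21% of all genes tested. The difference grew for *Ltbp1* (2.58 ± 0.32, adjusted p = 0.00515), an annotated gene at chr17:75005568-75392512 in GRCm38, for *Tgfb2* at chr1:186622792-186705989 (2.55 ± 0.42, adjusted p = 0.0143), for *Id4* at chr13:48261228-48266026 (2.20 ± 0.43, adjusted p = 0.0286) and for *Tgfb1* at chr7:25687002-25705077 (1.45 ± 0.28, adjusted p = 0.0274). It went down for *Gdf6* at chr4:9844372-9862345 (-1.90 ± 0.20, adjusted p = 0.00307) and for *Tgfbr1* at chr4:47353222-47414931 (-0.78 ± 0.15, adjusted p = 0.0301). For *Ltbp1* the control level fell 2.56-fold while the *Sox17*-*Erg* level rose 2.33-fold, and for *Gdf6* the control level rose 1.596-fold while that of *Sox17*-*Erg* fell 2.34-fold, all of which passed. For *Tgfb2* and *Id4* the rise in *Sox17*-*Erg* passed (4.07- and 6.65-fold, adjusted p = 0.00205 and 0.000665) and the change in control did not (adjusted p = 0.216 and 0.232). For *Tgfbr1* the rise in control passed and the change in *Sox17*-*Erg* of 0.31 did not (adjusted p = 0.0562).

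**Figure D4:**
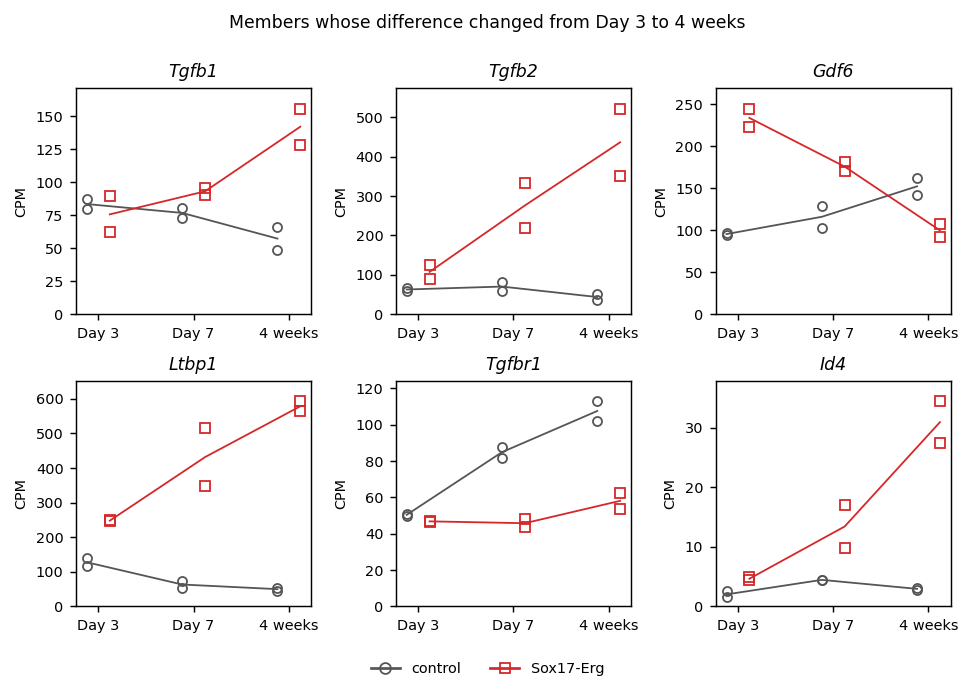
TMM-normalized CPM (y axis from 0, a scale for each gene) of the 6 genes whose *Sox17*-*Erg* minus control difference changed from Day 3 to 4 weeks, with circles for control libraries, squares for *Sox17*-*Erg* libraries and lines through the means of 2 libraries. The groups of *Gdf6* cross between Day 7 (129 and 103 CPM in control, 171 and 181 in *Sox17*-*Erg*) and 4 weeks (162 and 142, 108 and 92.2), and those of *Ltbp1* and *Tgfb2* move apart.

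Without any 1 library *Ltbp1* and *Gdf6* kept the interaction call, and 2 or 3 members were called without control Day 3 replicate 1, either *Sox17*-*Erg* library of Day 3, control 4 weeks replicate 1 or *Sox17*-*Erg* 4 weeks replicate 1. With the replicate block within each time point 11 members were called, beside 6.89% of all genes in that fit, adding *Bmp5* (3.33, adjusted p = 0.0371), *Gdf10* (-2.56, adjusted p = 0.0179), *Inhbb* (2.09, adjusted p = 0.0394), *Fst* (-1.13, adjusted p = 0.0374) and *Fstl3* (1.42, adjusted p = 0.0329). A replicate block over all libraries also called *Gdf10* (-2.62, adjusted p = 0.0253), and, for changes with time, *Tgfb2* (-0.55, adjusted p = 0.0147) and *Acvrl1* (0.43, adjusted p = 0.02499) in control and *Tgfbr3* (1.42, adjusted p = 0.0153) and *Eng* (1.003, adjusted p = 0.0126) in *Sox17*-*Erg*.

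Counted without a test, 28 members had both *Sox17*-*Erg* libraries on the same side of both control libraries at all 3 time points, 18 higher and 10 lower, beside 14.6% higher and 13.6% lower among all genes tested. The 18 were *Tgfb2*, *Bmp4*, *Bmp6*, *Inhba*, *Ltbp1*, *Ltbp2*, *Ltbp4*, *Acvr2a*, *Acvr2b*, *Bmpr2*, *Smad1*, *Smad2*, *Smad7*, *Skil*, *Fst*, *Fstl3*, *Chrd* and *Id4*, and the 10 were *Tgfbi*, *Tgfbr1*, *Tgfbr3*, *Acvr1b*, *Acvrl1*, *Bmpr1a*, *Smad3*, *Ski*, *Bambi* and *Grem1*. The time points share no library, and 2 libraries against 2 cannot give an exact permutation p below 0.333 for a single gene at a single time point.

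Of 113 further genes of the pathway in 6 lists, some were also called, and their counts are read beside the shares of all genes tested that were higher (7.19%, 9.48% and 11.9% at Day 3, Day 7 and 4 weeks) or lower (5.13%, 7.93% and 11.0%). Among 19 genes tested of those known to respond to TGF-beta, 3, 9 and 7 were higher at the successive time points (15.8%, 47.4% and 36.8%) and 2 lower at 4 weeks, with median log2 fold changes of 0.26, 0.76 and 0.78. *Postn*, the matricellular protein periostin, was at 711 and 810.3 CPM in control and 3933 and 5887 in *Sox17*-*Erg* at Day 7 and 60.4 and 47.5 against 1542 and 1346 at 4 weeks (4.74 ± 0.30, adjusted p = 1.90e-05). *Itga11*, a collagen receptor of fibroblasts, was higher by 1.55, 2.68 and 2.91, and *Jun* by 1.69, 2.22 and 2.79. *Nox4*, an oxidase induced in myofibroblasts, was higher by 0.70, 1.67 and 2.01 at the 3 time points, and *Pmepa1*, an inhibitor of *Smad2* and *Smad3*, by 0.97 at Day 7 and 1.85 at 4 weeks. *Acta2*, or smooth muscle actin, was higher at Day 7 (698 and 347 CPM against 2763 and 1224), where its control replicates differed widely. *Comp*, a cartilage matrix protein, was lower at 4 weeks, at -2.87. Smooth muscle and pericyte markers, which include *Acta2*, moved with this list, and *Postn* is also a fibroblast marker, and their part was not tested.

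Among 10 genes tested of those known to respond to BMP, 2 were higher and 2 lower at Day 3, 3 higher at Day 7, and 3 higher and 1 lower at 4 weeks, with median log2 fold changes of 0.22, 0.76 and 0.52. *Hey1*, a factor that also answers Notch, was at 0.182 and 0.231 CPM in control and 6.78 and 3.53 in *Sox17*-*Erg* at Day 3 and 0.977 and 0.529 against 49.2 and 54.1 at 4 weeks (6.04 ± 0.65, adjusted p = 0.000284). *Hey2*, its relative, was higher by 2.51, 2.49 and 3.52, and *Runx2*, a factor of bone formation, by 1.31 and 1.26 at Day 7 and 4 weeks. *Tbx20*, a cardiac T-box factor, was lower at Day 3 (-1.12) and 4 weeks (-0.74), and *Atoh8* was lower at Day 3 (-0.83).

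Among 23 other extracellular regulators tested, 3 were higher at Day 3, 4 higher and 3 lower at Day 7, and 6 higher and 7 lower at 4 weeks, with medians of -0.08, -0.01 and 0.11. *Sost*, which encodes the BMP and Wnt antagonist sclerostin, had 0 counts in all 6 control libraries while in *Sox17*-*Erg* it read 5.72 and 3.06 CPM on Day 3, 37 and 32.4 on Day 7 and 16.7 and 36.3 after 4 weeks. Against a floor of 3 counts per control library it was at least 35.4-fold higher at Day 3, at least 295-fold at Day 7 and at least 269-fold at 4 weeks. Its relative *Sostdc1* went from 0.1503 and 0.0813 CPM in control to 26.5 and 30 in *Sox17*-*Erg* at 4 weeks. *Itgb8*, part of an integrin that frees latent TGF-beta, was higher by 2.11, 1.38 and 1.21, *Fbn1*, a fibrillin that binds the latent complex, by 0.77 and 0.74 at Day 7 and 4 weeks, and *Fstl4* by 2.77 at 4 weeks. *Dcn*, or decorin, a proteoglycan that binds TGF-beta, was lower, at -3.16 ± 0.57 at Day 7 and -3.31 ± 0.58 at 4 weeks (adjusted p = 0.00639 and 0.00363). *Twsg1* (-0.96) was also lower at Day 7, and *Fbn2* (-2.28) and *Kcp* (-2.15) at 4 weeks.

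Among 23 other intracellular regulators tested, 5, 10 and 7 were higher at the successive time points (21.7%, 43.5% and 30.4%) and 1 lower at each (4.35%), with medians of 0.29, 0.27 and 0.33. *Tgif1*, a Smad corepressor, was at 13.8 and 13.96 CPM in control and 32.3 and 30.2 in *Sox17*-*Erg* at Day 3 and 7.87 and 7.73 against 54.2 and 38.9 at 4 weeks (2.58 ± 0.17, adjusted p = 2.28e-05). *Smurf1*, a ubiquitin ligase that acts with *Smad7*, was higher by 0.75, 0.99 and 1.13, *Tgif2* by 0.83 and 1.07 at Day 7 and 4 weeks, and *Trim33* by 0.86 and 0.76 at Day 3 and Day 7. *Dab2*, an endocytic adaptor of the receptors, was lower, at -1.08, -1.48 and -1.62. *Tab2* and *Strap* were higher at Day 3 by 0.62 and 0.55, and *Ldlrad4* at 4 weeks by 0.93.

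Among 9 other ligands tested, 1 was higher at each time point (11.1%, near the share of all genes) and 2 were lower at 4 weeks, with medians of -0.54, -0.12 and -0.43. *Gdf11* was higher by 1.21, 1.40 and 1.48, and *Bmp3* was lower at 4 weeks (-1.69). *Gdf2*, which encodes the *Acvrl1* ligand BMP9, was lower then at under 0.5 CPM (0.476 and 0.407 against 0.106 and 0.111). Among 6 other receptors tested, 1, 2 and 1 were higher and 1, 1 and 2 lower, too few to set against those shares, with medians of -0.34, -0.23 and -0.37. *Nrp1*, a coreceptor also of VEGF, was higher by 2.10 at Day 3 and 1.35 at Day 7, and *Cd109*, a TGF-beta coreceptor that dampens signaling, by 1.29 at Day 7 and 1.75 at 4 weeks. *Neo1* was lower at Day 3 (-0.60) and *Rgmb* at 4 weeks (-0.62), both of which take part in BMP signaling. *Acvr1c* was lower at Day 7 (1.92 and 0.362 CPM against 0.0827 and 0.0879) and 4 weeks (3.31 and 1.14 against 0 and 0.03704).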

How the data were processed

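The data are 12 bulk RNAseq libraries of neonatal mouse cardiac fibroblast cultures, 2 for each of control and *Sox17*-*Erg* at 3 time points. Stranded mRNA libraries were sequenced on a NovaSeq, demultiplexed with bcl2fastq 2.20.0, trimmed with BBDuk and quantified with Salmon, for which the submitters' processing notes name the build mm10. The version of Salmon and the annotation are not given in the sources used here. The authors deposited estimated counts per Ensembl gene, which hold whole numbers and are not scaled for depth. The authors' differential expression came from DESeq2.

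The quasi-likelihood test of edgeR 4.0.16 in R 4.3.3 was run on these expected counts (TMM, filterByExpr at min.count 10 and min.total.count 15, 6 group means, 6 residual degrees of freedom) over all 12 libraries and 15506 genes, with Benjamini-Hochberg adjustment over all of them. CPM are TMM-normalized, SE is the size of the log2 fold change over the root of F, and levels per kilobase divide by exon length. Symbols and positions came from GENCODE M21 (GRCm38), which held 35493 of 35727 identifiers and all 52 members. The medians of all genes differed from 0 by at most 0.0143 (log2) at any time point. Alternatives were the DESeq2 1.42.0 Wald test, its size factors, no filter on low counts, time points fitted alone, replicate blocks and leaving out each library. On simulated Day 7 data 198 of 15180 genes tested were changed, while 1470 higher and 1230 lower genes were called in the real Day 7 data. In the simulation 21 of 85 genes changed 2-fold and 82 of 113 changed 4-fold were called, and 7 of 110 calls were false. With fewer changed genes the adjustment is stricter, so these rates need not hold for the real data.

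Replicate numbers are those of the labels, and the study produced the viruses of compared conditions on the same day. Deviations of same-numbered control and *Sox17*-*Erg* libraries from their group means correlated by 0.186, 0.301 and 0.171 across genes, which are not independent replicates, so numbers were taken to pair libraries within a time point. The main fit held no replicate block and so did not use this pairing. Values that use it are those named as coming from a block. Replicates of a group differed beyond counting error (chi-square over its degrees of freedom 29.7 to 76.0), so none was a copy of another, which does not show separate isolations.

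The members and gene lists were chosen with earlier results of these data known. All 52 members were accounted for, those called at 1 or more time points with every library's value. Of the 113 further pathway genes, those called and among the 6 largest changes of their list at a time point were named, and the other calls were only counted. One result among them is not reported here. The rule for markers kept the defining ones.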

Additional observations from a re-analysis of the deposited data

Results flagged for a closer look

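Each of 6 members was singled out because the test of the difference itself found that *Sox17*-*Erg* minus control differed between Day 3 and 4 weeks. On the log2 scale, at 4 weeks minus Day 3, the change in the difference was 2.58 for *Ltbp1*, 2.55 for *Tgfb2*, 2.20 for *Id4* and 1.45 for *Tgfb1*, and -1.90 for *Gdf6* and -0.78 for *Tgfbr1*. For *Ltbp1* the effect was 0.96 at Day 3 and 3.54 at 4 weeks, for *Tgfb2* 0.78 and 3.32, for *Id4* 1.19 and 3.38, and for *Tgfb1* -0.14 and 1.31. For *Gdf6* it was 1.29 and -0.61, and for *Tgfbr1* -0.11 and -0.89. With groups of 2 libraries, single libraries were not examined as outliers.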

How the results depend on the processing

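No called difference of the 51 members or of the 89 further pathway genes tested turned its sign under any alternative run. With each time point fitted alone, 8 members were higher and 3 lower at Day 7 in place of 15 and 11, on 2 residual degrees of freedom. For the change in effect from Day 3 to 4 weeks, 12 members were called with no filter on low counts, 11 by DESeq2 and 11 with the replicate block within each time point, in place of 6. Apart from that block, the share of all genes called is not given for the fits of this section. Their shifts in count are therefore not read as particular to the members. Beyond the values printed beside the results, the replicate blocks changed no other call of a member. Without 1 library, the count at Day 3 ran from 3 to 13 higher and 0 to 7 lower, at Day 7 from 10 to 16 higher and 4 to 12 lower, and at 4 weeks from 11 to 17 higher and 4 to 10 lower. For time in control it ran from 12 to 23 higher and 3 to 7 lower, for time in *Sox17*-*Erg* from 17 to 26 higher and 3 to 5 lower, for the change in effect from 2 to 8, and for members with no overlap from 28 to 31. The Day 3 log2 fold changes of 9 members, none of them called then, changed sign in that set of fits, 3 of them (*Gdf15*, *Nog* and *Smad5*) called at no time point and the others being *Tgfb1* from -0.43 to 0.055, *Bmp2* from -0.91 to 0.13, *Bmp5* from -0.38 to 0.12, *Acvr1* from -0.050 to 0.15, *Fstl1* from -0.24 to 0.13 and *Id2* from -0.29 to 0.17. The cause of these changes was not tested, and fits with fewer libraries have fewer residual degrees of freedom. Where 1 library is left in a group, it is assumed to vary like the others. Changes near 2-fold were often missed in the simulated data, where fewer genes changed than were called in the real data. With 2 libraries per group, an uncalled member is not shown to be equal between groups.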
